A study of Mus musculus with 28 samples.

Results

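The collagen genes examined here are all mouse genes whose single symbol in the platform annotation has the form Col, a number, a, a number, each represented by its brightest probe set over all arrays. This rule found 42 collagen genes among 18193 genes with 1 symbol, on 82 probe sets, and 35 of the 42 passed the filter on low values and were tested. Expression was measured as probe set intensity on 28 Affymetrix microarrays with a single label, of mouse medulloblastoma (MB), glioma (GL) and normal brain (NB). Medulloblastoma arises in the cerebellum, and gliomas resemble glial cells. The genotypes of the series vary Rictor, which encodes a component that mTORC2, a growth-signalling kinase complex, needs to work.

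The 10 medulloblastomas comprised 5 labelled hGFAP-Cre, p53-/-, Rictor-/-, 2 labelled hGFAP-Cre, p53-/-, Rictor+/-, and 3 labelled hGFAP-Cre, p53-/- with no Rictor allele named (p53-only). Of the 6 gliomas 1 was Rictor-/-, 4 were Rictor+/- and 1 was p53-only, all of them again hGFAP-Cre and p53-/-. The 12 normal brains comprised 5 Rictor-/-, 5 Rictor+/- and 1 p53-only sample with the same Cre and p53 alleles, and 1 from normal mice (wild type). Loss of p53 and the Cre transgene were thus shared by every group but the wild-type array. The hGFAP promoter drives Cre in neural progenitors, so that neurons and glia derived from them carry the deletions. The labels state at least 70% tumour cells for the tumour samples. Ages are not in the labels used here, and whether different arrays stand for different mice is not stated, so p-values reflect only array-to-array spread, possibly technical. Arrays are named by the letter and number in their titles.

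Collagens are triple-helical proteins of the extracellular matrix. The fibrillar collagens form the banded fibres of connective tissue and cartilage, collagen IV forms the network of basement membranes, which in brain lie around vessels and under the meninges, and the FACIT collagens sit on the surface of fibrils. The normal brain parenchyma holds little fibrillar collagen, and collagen XXV, a membrane-spanning collagen, is made by neurons.

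The promoters of 5 genes are shown because the results turn on them: Col4a1 and Col4a2, which share a head-to-head promoter and followed each other from array to array, and Col9a1, Col11a1 and Col16a1, which had large differences in gliomas. The windows are from RefSeq on GRCm38.p6, run 5′ to 3′ on the gene's strand, and cover 250 bases before to 50 after the start. Capitals mark CCAAT and GGGCGG, the CCAAT box and the GC box, on either strand (ATTGG and CCGCCC on the other one), and no 2 matches share a base in the windows shown. Col9a1 has 2 annotated starts.
Col4a1 (chr8:11312777-11313076, minus strand): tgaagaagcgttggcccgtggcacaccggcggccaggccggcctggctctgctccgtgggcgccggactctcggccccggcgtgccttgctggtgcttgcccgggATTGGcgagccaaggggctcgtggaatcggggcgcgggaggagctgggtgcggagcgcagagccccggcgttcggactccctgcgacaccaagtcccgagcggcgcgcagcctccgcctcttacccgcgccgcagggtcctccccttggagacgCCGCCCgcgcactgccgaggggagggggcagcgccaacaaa
Col4a2 (chr8:11312555-11312854, plus strand): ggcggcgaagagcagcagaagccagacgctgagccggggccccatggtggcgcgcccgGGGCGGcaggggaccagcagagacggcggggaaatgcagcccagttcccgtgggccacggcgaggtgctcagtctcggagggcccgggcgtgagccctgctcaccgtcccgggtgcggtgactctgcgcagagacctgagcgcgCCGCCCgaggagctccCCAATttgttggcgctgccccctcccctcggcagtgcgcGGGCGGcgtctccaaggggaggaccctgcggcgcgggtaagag
Col9a1, first start (chr1:24177360-24177659, plus strand): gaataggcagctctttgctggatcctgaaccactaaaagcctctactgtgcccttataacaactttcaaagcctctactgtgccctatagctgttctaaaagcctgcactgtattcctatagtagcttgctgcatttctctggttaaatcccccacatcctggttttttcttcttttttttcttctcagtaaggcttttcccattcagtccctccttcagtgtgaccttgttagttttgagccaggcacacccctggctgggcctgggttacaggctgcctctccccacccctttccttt
Col9a1, second start (chr1:24194953-24195252, plus strand): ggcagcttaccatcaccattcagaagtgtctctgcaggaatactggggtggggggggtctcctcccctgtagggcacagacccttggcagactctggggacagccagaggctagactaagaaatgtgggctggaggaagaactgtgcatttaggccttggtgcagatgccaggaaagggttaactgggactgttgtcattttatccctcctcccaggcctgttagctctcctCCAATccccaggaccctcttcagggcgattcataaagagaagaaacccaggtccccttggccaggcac
Col11a1 (chr3:114030290-114030589, plus strand): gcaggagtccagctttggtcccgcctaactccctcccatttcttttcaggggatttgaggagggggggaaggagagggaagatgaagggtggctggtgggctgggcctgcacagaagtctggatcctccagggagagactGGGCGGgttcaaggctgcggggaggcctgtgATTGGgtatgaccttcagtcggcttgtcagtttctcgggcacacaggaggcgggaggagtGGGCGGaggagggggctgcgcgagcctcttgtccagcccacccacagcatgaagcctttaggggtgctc
Col16a1 (chr4:130047590-130047889, plus strand): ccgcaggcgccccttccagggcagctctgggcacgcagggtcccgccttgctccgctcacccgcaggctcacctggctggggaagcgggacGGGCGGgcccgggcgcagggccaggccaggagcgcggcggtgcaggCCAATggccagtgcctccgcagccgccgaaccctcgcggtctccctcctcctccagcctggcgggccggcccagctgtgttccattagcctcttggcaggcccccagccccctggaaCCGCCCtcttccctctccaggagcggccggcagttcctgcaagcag
The windows of Col4a1 and Col4a2, which lie on opposite strands, share 78 bases around the 2 annotated starts. The Col4a5 and Col4a6 windows on chromosome X, another head-to-head pair, lie 842 bases apart. Windows were matched for 33 of the 42 genes, 36 windows in all. CCAAT occurred in 36.1% of them, against 37.4% of all 32851 promoter windows, and GGGCGG occurred in 61.1%, against 35.7%. The letters TATAAA occurred in 13.9% of the collagen windows, against 13.6% of all. Neither Col9a1 window held GGGCGG, while the Col4a2 window held 3 and the Col11a1 and Col16a1 windows 2 each. The guanine and cytosine content was 74.0% in the Col4a1 window and 47.3% and 55.7% in the 2 windows of Col9a1. These matches describe letters only.

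Every array had been scaled by the submitters to one trimmed mean, which lay between 99.0 and 99.9, and the array medians lay between 18.8 and 27.8. Each adjusted p below is from limma, two-sided, adjusted by Benjamini-Hochberg over all 13927 genes tested, and a gene was called at an adjusted p under 0.05. Log2 differences are of log2(intensity + 6.3), which understates the change of dim genes, and levels are linear intensity. Probe sets differ in brightness, so levels were compared only within a gene. Of the granule neuron lineage markers, all 7 were tested and 6 were higher in medulloblastomas than in normal brains (32.2% of all genes were). All 7 oligodendrocyte precursor markers were higher in gliomas than in normal brains (28.4% of all genes were). Some arrays stood apart. Gabra6, a receptor subunit of mature cerebellar granule neurons, was at 4918, 4153 and 1740 in normal brains Z2, C5 and B2 and at 1638 and 1324 in medulloblastomas B6 and C6, and medulloblastoma C6 had Atoh1, a granule precursor factor, at 37.5, against a median of 1111 over the 10. Gliomas B7 and B2 had Gabra6 at 1014 and 674.9, and normal brain C2 had Atoh1 at 176.2, against a median of 6.8. Counts are given below also without these 8 arrays, a setting chosen after the data were seen. The summed forebrain neuron markers were at 499.4, 549.6 and 310.8 in normal brains Z2, C5 and B2, and at 1834.5 to 3250.1 in the others. Medulloblastomas were thus compared mostly with normal brains high in forebrain markers, and without the 8 arrays only such normal brains remain. Brain region and tumour therefore cannot be told apart. Rictor itself averaged 171 in the 5 Rictor-/- medulloblastomas, against 269 in the 2 Rictor+/- and 251 in the 3 p53-only ones, but 278 in the 5 normal brains labelled Rictor-/- against 282 in the 5 labelled Rictor+/-. The position of its probe set relative to the deletion was not known here, so this level checks the labels only in part, and Rictor-/- below means labelled so.

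Medulloblastomas and normal brains were compared first. Of the 35 collagen genes tested, 16 were higher in medulloblastomas (45.7%, against 32.2% of all genes) and 2 were lower (5.71%, against 32% of all genes), and 17 did not pass. The median log2 difference over the 35 was 0.60, and 0.01 over all genes. The largest rises were in cartilage-type collagens (Col9a3, Col11a1, Col9a1), in Col3a1 and Col5a2 of connective tissue fibrils and in Col4a5 of basement membranes. The genes that fell were Col19a1 and Col25a1. In gliomas 16 of the 35 genes were higher than in normal brains (45.7%, against 28.4% of all genes) and 3 were lower (8.57%, against 25.5%), with a median log2 difference of 0.96, against 0.05 over all genes. Without the 8 arrays named above the counts were 18 higher and 2 lower in medulloblastomas and 16 higher and 3 lower in gliomas. The titles carry the prefix YZ or YZ2, whose meaning the labels do not give. Within YZ (5 medulloblastomas, 4 gliomas, 5 normal brains) 8 genes were called in medulloblastoma and 17 in glioma, and within YZ2 (5, 2 and 7 arrays) 14 and 11. The shares of all genes called without the 8 arrays or within a prefix were not computed. These counts therefore cannot be set against the shares above. Both comparisons use the same normal brains, so they are set side by side and their agreement is not a result.

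**Figure D1:**
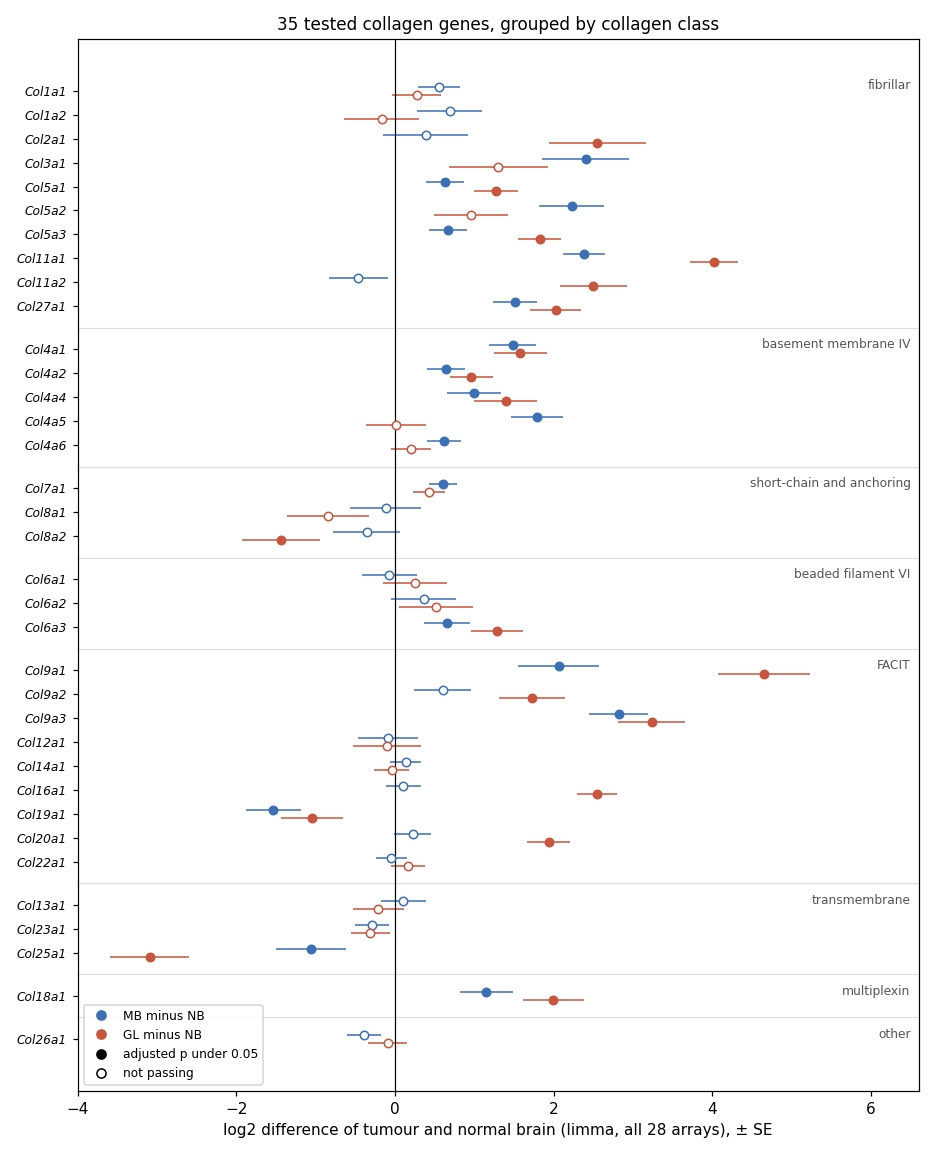
Log2 differences (x axis, with standard errors) of the 35 tested collagen genes (rows, grouped by class) in medulloblastoma minus normal brain (blue) and glioma minus normal brain (red), from limma over all 28 arrays, filled where the adjusted p was under 0.05. Col9a1 in glioma lies farthest right at 4.66 and Col25a1 in glioma farthest left at -3.09.

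The collagen IX and XI genes encode minor chains of cartilage fibrils. Col9a1 encodes the alpha-1 chain of the FACIT collagen IX. Its lowest, median and highest intensities were 16.1, 99.8 and 530.1 in medulloblastomas (n = 10), 204.3, 423 and 5429 in gliomas (n = 6), and 12.1, 21.6 and 43.9 in normal brains (n = 12). Each glioma was above each normal brain, while the lowest medulloblastomas, A5 and A6, lay within the normal range. The log2 difference was 2.06 ± 0.51 (SE, adjusted p = 0.000907) in medulloblastoma and 4.66 ± 0.58 (adjusted p = 2.88e-07) in glioma. Within YZ the difference in medulloblastoma was 1.43 and did not pass (adjusted p = 0.165), and within YZ2 it was 2.46 (adjusted p = 0.00774). The highest medulloblastoma value came from C6 and the highest glioma value from B3, with the p53-only glioma A4 next at 1434.

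Col9a3, the alpha-3 chain, had 174, 260 and 794.9 in medulloblastomas, 78.6, 391.5 and 759.6 in gliomas, and 11.8, 43.5 and 103.7 in normal brains. All 10 medulloblastomas exceeded the 12 normal brains, and in glioma only B2 lay within their range. Col9a3 rose by 2.82 ± 0.37 on the log2 scale in medulloblastoma (adjusted p = 2.42e-07) and by 3.24 ± 0.42 in glioma (adjusted p = 5.3e-07). Among the normal brains the highest Col9a3 values were in C5, Z2 and C2. Col9a2, the alpha-2 chain, passed in glioma (1.73 ± 0.42, adjusted p = 0.000999) and did not pass in medulloblastoma (0.60 ± 0.36, adjusted p = 0.15). Its median was 20.8 in medulloblastomas and 24.8 in gliomas, against 7.45 in normal brains.

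Col11a1 encodes a chain of collagen XI, which forms the core of cartilage fibrils. It had 82.7, 160 and 264.7 in medulloblastomas, 338, 476 and 2401 in gliomas, and 1.4, 25.1 and 52.7 in normal brains. The tissues did not overlap in any pair: the lowest glioma was above the highest medulloblastoma and the lowest medulloblastoma above the highest normal brain. The log2 difference was 2.39 ± 0.27 in medulloblastoma (adjusted p = 2.09e-08) and 4.02 ± 0.31 in glioma (adjusted p = 3.04e-10). Of the 35 genes 2, Col11a1 and Col9a3, were higher in each medulloblastoma than in each normal brain (8.77% of all genes were), and 1, Col19a1, was lower in each (7.96% of all genes). In glioma 6 genes did not overlap with normal brain, all of them higher: Col11a1, Col11a2, Col16a1, Col20a1, Col4a1 and Col9a1 (9.45% of all genes).

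Col11a2, another collagen XI chain, differed between the tumours. Its intensities were 3.1, 14.5 and 22.3 in medulloblastomas, 37.1, 162 and 853.1 in gliomas, and 13.7, 22.1 and 33 in normal brains. It rose by 2.50 ± 0.42 in glioma (adjusted p = 2.01e-05), and its difference in medulloblastoma was -0.46 ± 0.37 (adjusted p = 0.28). Col2a1, the main chain of cartilage fibrils, had 3, 9.05 and 54.1 in medulloblastomas, 9.3, 31.3 and 1387 in gliomas, and 1, 3.9 and 18.1 in normal brains. Single gliomas carried most of this signal: A4 was at 1387, B2 at 284.8 and the others at 44.3 or less. Col2a1 passed in glioma (2.55 ± 0.61, adjusted p = 0.000978) but not in medulloblastoma (0.39 ± 0.53, adjusted p = 0.543), and within YZ2 the difference in glioma was 1.69 (adjusted p = 0.0505). The 3 highest normal brains for Col2a1 were Z2 (18.1), B2 (16.7) and C5 (15.7), the ones with the highest Gabra6.

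Further FACIT genes passed in glioma and not in medulloblastoma. Col16a1, a collagen found in cartilage and skin, had 29.6, 51.1 and 79.2 in medulloblastomas, 205.1, 342 and 825.1 in gliomas, and 29.3, 49.4 and 96.8 in normal brains. The 6 gliomas lay above the other 22 arrays. Its difference was 2.55 ± 0.26 in glioma (adjusted p = 1.34e-08) and 0.11 ± 0.23 in medulloblastoma (adjusted p = 0.694). Col20a1 rose by 1.94 ± 0.27 in glioma (adjusted p = 1.71e-06), where its values ran from 27.8 to 173, against 8.4 to 24 in normal brains. Col12a1, Col14a1 and Col22a1, the remaining fibril-associated genes apart from Col19a1, passed in neither tumour. Col12a1 reached 321.8 in glioma B2, while the other gliomas were at 58.8 or less.

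**Figure D2:**
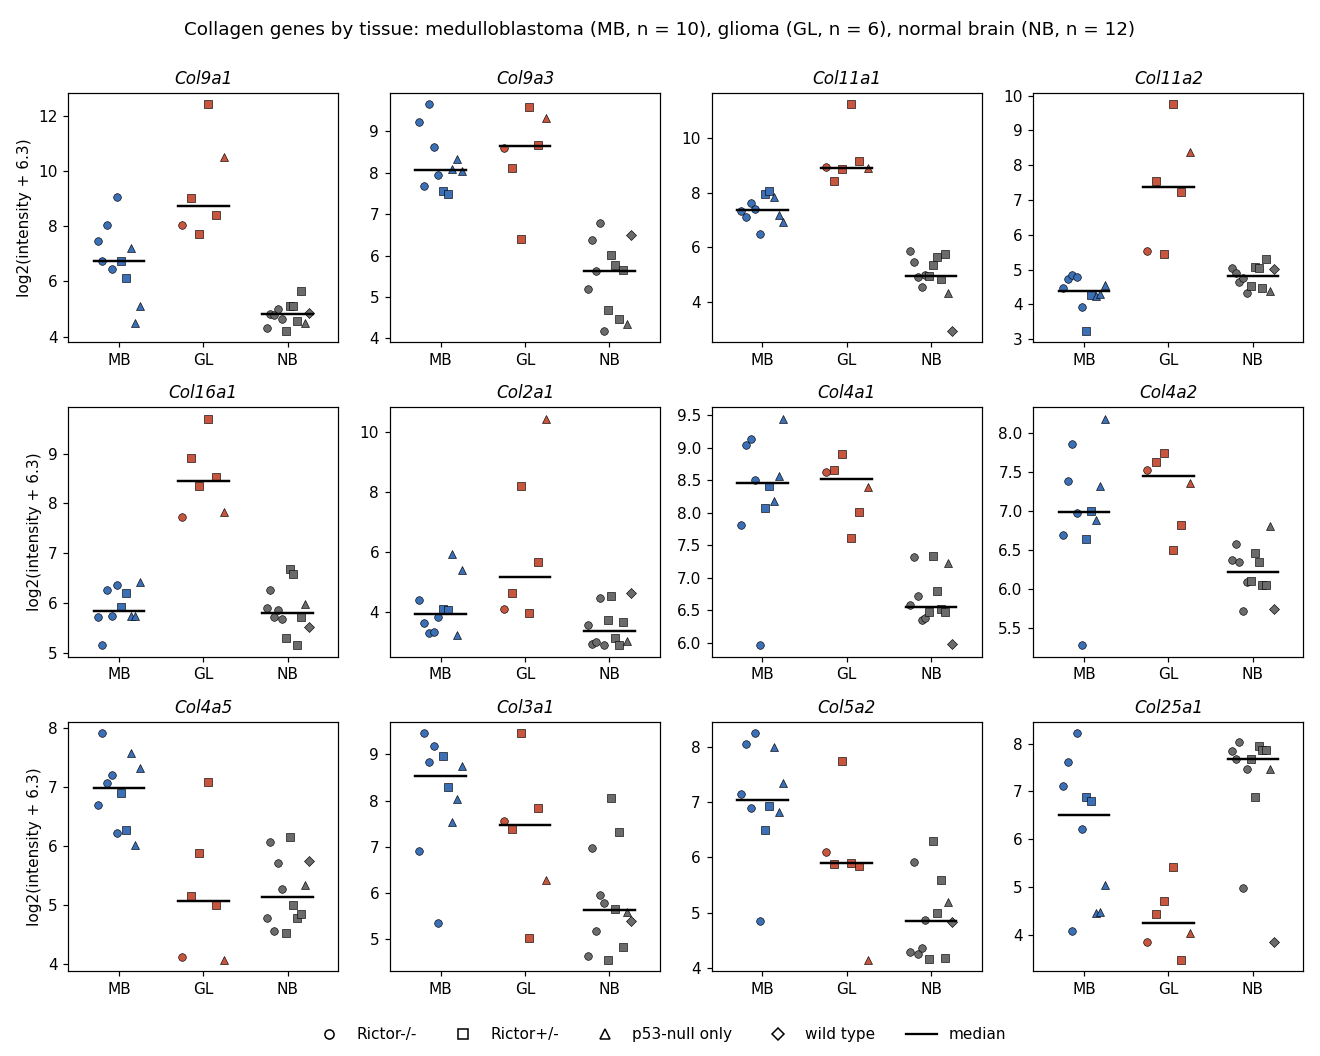
Expression of 12 collagen genes, as log2(intensity + 6.3) on the y axis, in medulloblastoma (MB, blue), glioma (GL, red) and normal brain (NB, grey), with 1 point per array, the genotype as the symbol and the median as a bar. Col16a1 is high in the 6 gliomas alone, and Col11a1 separates the 3 tissues. Col4a5 has its highest median in medulloblastomas, whose range overlaps with those of gliomas and normal brains.

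Collagen IV genes encode the network of basement membranes. All 5 that were tested were higher in medulloblastoma (Col4a1, Col4a2, Col4a4, Col4a5 and Col4a6), where 32.2% of all genes were higher. In glioma 3 were higher (Col4a1, Col4a2 and Col4a4), where 28.4% of all genes were. Col4a3 was below the filter. Col4a1 and Col4a2 encode the chains of the common trimer of vessel basement membranes. Col4a1 had 55.8, 346 and 693.4 in medulloblastomas, 189.3, 361 and 475.5 in gliomas, and 56.8, 87.5 and 154.9 in normal brains. Each glioma was above each normal brain, as were 9 of the 10 medulloblastomas, and C6 was the lowest. The log2 difference of Col4a1 was 1.48 ± 0.29 in medulloblastoma (adjusted p = 7.82e-05) and 1.58 ± 0.33 in glioma (adjusted p = 0.000268). Col4a2 had 32.6, 120 and 283.5 in medulloblastomas, 83.9, 168 and 206.7 in gliomas, and 46.4, 68.8 and 105.9 in normal brains. Its difference was 0.64 ± 0.24 in medulloblastoma (adjusted p = 0.0221) and 0.96 ± 0.27 in glioma (adjusted p = 0.00437). Without medulloblastoma C4 Col4a2 was no longer called in medulloblastoma (0.52, adjusted p = 0.0543). Within YZ2 neither Col4a1 nor Col4a2 passed in glioma (1.02, adjusted p = 0.296, and 0.37, adjusted p = 0.621), where 2 gliomas remain, and Col4a2 did not pass in medulloblastoma (0.29, adjusted p = 0.467).

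Col4a5, an X-linked chain, was higher in medulloblastoma alone as far as the separate tests go. It had 58.8, 121 and 234.5 in medulloblastomas, 10.6, 27.4 and 129.7 in gliomas, and 16.8, 29.2 and 65 in normal brains. The medulloblastoma difference was 1.79 ± 0.33 (adjusted p = 3.33e-05) and the glioma difference 0.02 ± 0.38 (adjusted p = 0.974). Col4a6, its head-to-head neighbour, rose by 0.62 ± 0.22 in medulloblastoma (adjusted p = 0.0147), but another probe set of Col4a6 did not pass (0.16, adjusted p = 0.461). Col4a4, a chain best known from kidney, rose by 0.997 ± 0.343 in medulloblastoma (adjusted p = 0.0131) and by 1.39 ± 0.39 in glioma (adjusted p = 0.00391). Col18a1, a basement membrane collagen whose end fragment is endostatin, rose by 1.15 ± 0.34 in medulloblastoma (adjusted p = 0.00411) and by 1.995 ± 0.386 in glioma (adjusted p = 0.0001). Its normal range of 19.1 to 200.3 was wide, with C5 (200.3) and Z2 (182.9) highest and the others at 67.8 or less.

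Markers of vessel cells were examined as lists. Of 8 endothelial markers tested 0 were higher and 2 lower in medulloblastoma (32.2% and 32% of all genes), and 1 was higher and 2 lower in glioma (28.4% and 25.5%). Their summed intensity ran from 412.9 to 862.6 in medulloblastomas, 514.5 to 869.2 in gliomas and 568 to 1340 in normal brains. Of 7 mural cell markers tested 1 was higher and 1 lower in medulloblastoma (32.2% and 32% of all genes), and 0 were higher and 2 lower in glioma (28.4% and 25.5%). The mural sums ran from 839.1 to 2413 in medulloblastomas, 858.2 to 1733 in gliomas and 1157 to 2508 in normal brains. Pdgfrb, a receptor gene on the mural list, had medians of 130 in medulloblastomas, 122 in gliomas and 170 in normal brains. Anpep was under the filter level on every array and was not tested. Myh11, also not tested, ran from 0.3 to 5.8 in medulloblastomas, 0.7 to 6.1 in gliomas and 6.8 to 49.5 in normal brains. The part of vessel cells in the collagen IV differences was not tested. In whole tissue, fewer cells of a type and less RNA per cell cannot be told apart.

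Other basement membrane genes are laminins, nidogens, perlecan, agrin and Sparc. Of 15 tested, 5 were higher and 1 lower in medulloblastoma, with a median log2 difference of 0.08, and 5 were higher and 4 lower in glioma, with a median of 0.08. Over all genes 32.2% were higher and 32% lower in medulloblastoma (median 0.01), and 28.4% were higher and 25.5% lower in glioma (median 0.05). Nid1, which links laminin to collagen IV, had 159.7, 286 and 711.7 in medulloblastomas, 116.4, 239 and 359.7 in gliomas, and 27.7, 51.9 and 165.4 in normal brains. Nid1 rose by 2.27 ± 0.30 in medulloblastoma (adjusted p = 3.72e-07) and by 1.86 ± 0.35 in glioma (adjusted p = 6.91e-05). Lama5, a laminin alpha chain, rose by 1.92 ± 0.30 in medulloblastoma (adjusted p = 4.45e-06), and its glioma difference was -0.73 ± 0.35 (adjusted p = 0.079). Lama4, the laminin chain of vessel walls, rose by 2.13 ± 0.38 in glioma (adjusted p = 4.43e-05), and Agrn, the proteoglycan agrin, by 1.44 ± 0.25 there (adjusted p = 3.47e-05). Lamb3, an epithelial laminin chain, fell by 1.14 ± 0.24 in medulloblastoma (adjusted p = 0.000214).

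Collagens I, III and V build the fibres of connective tissue. Col3a1 had 34.9, 368 and 694.5 in medulloblastomas, 26.2, 172 and 698.2 in gliomas, and 17.3, 43.3 and 260.4 in normal brains. In medulloblastoma 6 of the 10 arrays were above the highest normal brain, B2, and C6, C1, A3 and A5 were not. Col3a1 rose by 2.40 ± 0.54 in medulloblastoma (adjusted p = 0.000383), and its glioma difference of 1.31 ± 0.62 did not pass (adjusted p = 0.0777). Leaving out glioma B3, the lowest, gave 1.77 with an adjusted p of 0.0153 in glioma, leaving out normal brain B2 gave 1.56 with 0.0331, and leaving out medulloblastoma C6 gave 1.38 with 0.0376. The glioma difference was 1.595 (adjusted p = 0.034) without normal brains B2, C5 and Z2, 1.99 (adjusted p = 0.0415) within YZ and 0.08 (adjusted p = 0.969) within YZ2.

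Col5a2, a chain that sits in type I and III fibrils, had 22.6, 125 and 296.7 in medulloblastomas, 11.4, 53 and 206.2 in gliomas, and 11.5, 22.6 and 72.5 in normal brains. C6 was the only medulloblastoma within the normal range. Col5a2 rose by 2.23 ± 0.41 in medulloblastoma (adjusted p = 3.29e-05), and its glioma difference was 0.96 ± 0.47 (adjusted p = 0.0845). Col5a1 passed in both tumours (0.63 ± 0.24 in medulloblastoma, adjusted p = 0.0237, and 1.27 ± 0.28 in glioma, adjusted p = 0.000356), though another Col5a1 probe set did not pass in medulloblastoma (0.05, adjusted p = 0.84). Col5a3 rose by 0.67 ± 0.24 in medulloblastoma (adjusted p = 0.0157) and by 1.83 ± 0.27 in glioma (adjusted p = 3.75e-06), and Col27a1, a fibrillar collagen of cartilage, by 1.52 ± 0.28 (adjusted p = 3.64e-05) and 2.03 ± 0.32 (adjusted p = 8.21e-06). In normal brain the 3 highest Col27a1 values were again in Z2 (172.6), C5 (159) and B2 (113.9), against a median of 64.7.

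The major connective tissue chains of collagen I did not pass in the main fit. Col1a2 had 56.5, 284 and 530.4 in medulloblastomas, 41.9, 135 and 420.5 in gliomas, and 51.7, 169 and 377.7 in normal brains. The 3 ranges overlapped over most of their length. Its difference was 0.69 ± 0.41 in medulloblastoma (adjusted p = 0.147) and -0.17 ± 0.47 in glioma (adjusted p = 0.785). A dimmer Col1a2 probe set was called in medulloblastoma (1.12 ± 0.42, adjusted p = 0.0218), as was the brightest one without medulloblastoma C1 (0.91, adjusted p = 0.0464) or without the 8 arrays (1.19, adjusted p = 0.0281). With the mean of all probe sets Col1a2 was also called in medulloblastoma (0.71, adjusted p = 0.0443). Col1a1 was dim throughout, at most 61.1 in medulloblastomas, 39.8 in gliomas and 26.1 in normal brains. Its difference was 0.56 ± 0.27 in medulloblastoma (adjusted p = 0.0668) and 0.27 ± 0.30 in glioma (adjusted p = 0.466). Leaving out any 1 of normal brain A6 (0.70, adjusted p = 0.033) or medulloblastomas B6 (0.73, adjusted p = 0.0198), A3 (0.61, adjusted p = 0.0478) and C1 (0.68, adjusted p = 0.0272) brought Col1a1 past the threshold in medulloblastoma. Without the 8 arrays Col1a1 was called there too (0.76, adjusted p = 0.0398).

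Fibrillar collagens are made by fibroblasts, and the meninges hold them. Of 10 meningeal fibroblast markers 1 was higher and 4 lower in medulloblastoma (32.2% and 32% of all genes), and 1 was higher and 5 lower in glioma (28.4% and 25.5%). The summed level ran from 401.4 to 1598 in medulloblastomas, 635.5 to 7598 in gliomas and 403.2 to 2871 in normal brains. Igf2 made up most of the glioma sum, with 77.1, 4260 and 7323 in gliomas. Ogn, the small proteoglycan osteoglycin, had 7.8, 12.9 and 33.2 in medulloblastomas, 1.2, 7.35 and 18.9 in gliomas, and 38.6, 111 and 226.2 in normal brains. The transporter gene Slc6a13 likewise fell by 1.99 ± 0.25 in medulloblastoma (adjusted p = 1.17e-07) and by 2.01 ± 0.28 in glioma (adjusted p = 1.76e-06). Lum was the marker that rose in medulloblastoma (0.99 ± 0.42, adjusted p = 0.043), and it did not pass in glioma (0.20 ± 0.48, adjusted p = 0.751). In normal brain, B2 was highest both for the meningeal fibroblast sum and for Col1a2, Col3a1 and Col5a2, but also for the endothelial, mural, oligodendrocyte and astrocyte sums. Medulloblastoma C2, the highest medulloblastoma for Col1a2 and Col3a1, had the lowest meningeal fibroblast sum (401.4). The part of fibroblasts in the collagen differences was not tested.

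Collagen VI forms beaded filaments around cells. Col6a3 rose by 0.66 ± 0.29 in medulloblastoma (adjusted p = 0.0484) and by 1.29 ± 0.33 in glioma (adjusted p = 0.00174). Col6a1 and Col6a2 passed in neither tumour, with differences of -0.07 ± 0.35 and 0.36 ± 0.41 in medulloblastoma and of 0.26 ± 0.40 and 0.52 ± 0.46 in glioma. Glioma B3 was the highest for these genes, at 224.9 for Col6a1, 371.7 for Col6a2 and 448.8 for Col6a3. Col7a1, the anchoring fibril collagen of skin, rose by 0.61 ± 0.18 in medulloblastoma (adjusted p = 0.00363), with medians of 35.1 in medulloblastomas and 17.4 in normal brains. Normal brains Z2 (49.7) and C5 (40.7), however, were above every medulloblastoma (22.1 to 39).

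Col25a1, Col19a1 and Col8a2 were the genes that fell. Col25a1 encodes a membrane-spanning collagen of neurons. It had 10.6, 85.9 and 291.9 in medulloblastomas, 4.8, 12.7 and 36.1 in gliomas, and 8, 198 and 256.3 in normal brains. Normal brains Z2 (8), C5 (25.2) and B2 (111.8) were the 3 lowest, and the other 9 lay between 171.6 and 256.3. In glioma Col25a1 fell by 3.09 ± 0.50 (adjusted p = 1.16e-05). In medulloblastoma the difference was -1.05 ± 0.44 (adjusted p = 0.0382), and it was -1.42 (adjusted p = 0.00278) without Z2, C5 and B2 and -1.43 (adjusted p = 0.0119) without the 8 arrays. It did not pass with the mean of all probe sets (-0.33, adjusted p = 0.292), within YZ (-0.56, adjusted p = 0.652; within YZ2 -1.28, adjusted p = 0.0185), without normal brain A6 (-0.82, adjusted p = 0.125) or without medulloblastoma C4 (-0.77, adjusted p = 0.0952). Leaving out any 1 of normal brains C1, C2, C3 and C6, medulloblastomas A3, A5 and C6 or glioma A4 also ended the call, with adjusted p from 0.0513 to 0.0653. The mature neuron markers were lower in the tumours as well: 6 of 7 in medulloblastoma (32% of all genes) and 7 of 7 in glioma (25.5%). Their sums were 1536 to 11607 in medulloblastomas, 539.5 to 4300 in gliomas and 14102 to 20268 in normal brains. Their part in the Col25a1 difference was not tested.

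Col19a1, a FACIT collagen made by interneurons in mouse brain, had 7.6, 23.7 and 48.1 in medulloblastomas, 14.7, 31.4 and 289.2 in gliomas, and 55.6, 93.8 and 118.8 in normal brains. Every medulloblastoma was below every normal brain. Among gliomas only B2 was above, at 289.2, with the others at 32 or less. Col19a1 fell by 1.53 ± 0.35 in medulloblastoma (adjusted p = 0.000372) and by 1.04 ± 0.40 in glioma (adjusted p = 0.0279). The glioma call was lost without any 1 of gliomas C3 (-0.79, adjusted p = 0.133), A4 (-0.84, adjusted p = 0.097), B1, B3 and B7 or normal brain A6 (adjusted p 0.053 to 0.0551 for these 4), and within YZ the medulloblastoma difference was -0.89 (adjusted p = 0.303). The glioma difference also did not pass within YZ (-0.76, adjusted p = 0.33), within YZ2 (-1.21, adjusted p = 0.141), with a pseudocount of 32 (-0.64, adjusted p = 0.0528) or with the mean of all probe sets (-0.67, adjusted p = 0.0585), and without the 8 arrays it was -1.66 (adjusted p = 7.6e-05). Col8a2, a short-chain collagen of the cornea and endothelia, had 4.9, 12.8 and 187.8 in medulloblastomas, 3.1, 7.55 and 18.6 in gliomas, and 9.5, 32.1 and 82.6 in normal brains. It fell by 1.43 ± 0.49 in glioma (adjusted p = 0.0149), and this call was lost within YZ (-1.85, adjusted p = 0.0645), within YZ2 (-1.53, adjusted p = 0.0652), with group means (-1.36, adjusted p = 0.0829) and without the 8 arrays (-1.09, adjusted p = 0.13). Of 7 choroid plexus markers tested 1 was higher and 3 lower in medulloblastoma (32.2% and 32% of all genes), and 0 were higher and 6 lower in glioma (28.4% and 25.5%). Their summed level ran from 71.4 to 9830 in medulloblastomas, 61.2 to 229.7 in gliomas and 249.4 to 10552 in normal brains. Normal brains A6, B1, C1 and Z2, with sums of at most 343.1, had Col8a2 at 20.3, 12.3, 9.5 and 15.2, while medulloblastoma C4, the highest for Col8a2, had the lowest medulloblastoma sum. Their part in the Col8a2 difference was not tested.

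The remaining genes Col8a1, Col13a1, Col23a1 and Col26a1 passed in neither comparison. For Col23a1, a membrane-spanning collagen, 2 dimmer probe sets were called lower in medulloblastoma (-0.77 ± 0.27, adjusted p = 0.0143, and -0.79 ± 0.26, adjusted p = 0.0102). Across the 19 collagen genes with another tested probe set, 0 had an opposite call. The 7 genes below the filter were Col10a1, Col15a1, Col17a1, Col24a1, Col4a3, Col6a4 and Col6a5. Just outside the filter level of 3.89 (mean of log2) were Col15a1 at 3.77 and Col4a3 at 3.68, and just inside were Col22a1 at 4.10 and Col26a1 at 4.11. Col15a1, a collagen at the outer side of basement membranes, had 3.2, 14.7 and 39.9 in medulloblastomas, 1.3, 8.7 and 12.7 in gliomas, and 1.4, 2 and 8.8 in normal brains, with no test. Col6a6, Col21a1 and Col28a1 were not analysed here.

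Medulloblastomas were next set directly against gliomas. Of the 35 genes 2 were higher in medulloblastoma (5.71%, against 13.6% of all genes) and 7 were lower (20%, against 14.8%), with a median log2 difference of -0.31, against 0.01 over all genes. Within YZ 8 were called and within YZ2 5, and without the 8 arrays 5 were higher and 6 lower. For these settings the shares of all genes were not computed. The lower genes were the cartilage-type and fibril-associated Col11a2, Col9a1, Col16a1, Col2a1, Col20a1 and Col11a1, and Col5a3. Col11a1, Col11a2 and Col16a1 were lower in each medulloblastoma than in each glioma (3.56% of all genes were). The log2 difference was -2.97 ± 0.45 for Col11a2 (adjusted p = 1.46e-05), -2.44 ± 0.27 for Col16a1 (adjusted p = 1.69e-07) and -1.64 ± 0.32 for Col11a1 (adjusted p = 0.00037). For Col9a1 the difference was -2.59 ± 0.62 (adjusted p = 0.00222) and for Col20a1 -1.72 ± 0.29 (adjusted p = 5.9e-05), and within YZ2 neither passed (adjusted p = 0.0589 and 0.0887). Col2a1, at -2.17 ± 0.65 (adjusted p = 0.0132), rested on glioma A4: without it the difference was -1.11 (adjusted p = 0.179). Col2a1 also did not pass within YZ (adjusted p = 0.0555), within YZ2 (0.586) or without the 8 arrays (0.0659).

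The genes higher in medulloblastoma were Col25a1 (2.04 ± 0.53, adjusted p = 0.00497) and Col4a5 (1.78 ± 0.40, adjusted p = 0.00134). Within YZ2 the Col4a5 difference was 0.57 (adjusted p = 0.626), where glioma B3 holds the highest glioma value, and within YZ that of Col25a1 was 1.98 (adjusted p = 0.15). Col3a1 and Col5a2 did not pass between the tumours (1.10 ± 0.66, adjusted p = 0.227, and 1.27 ± 0.50, adjusted p = 0.0562), and neither did Col1a1, Col1a2, Col4a1, Col4a2 or Col9a3. Without the 8 arrays Col3a1 was called (1.92, adjusted p = 0.0148). Oligodendrocyte precursor markers were lower in medulloblastomas than in gliomas, 7 of 7 (14.8% of all genes were). Their sums were 820.6 to 4318 in medulloblastomas, 8906 to 15432 in gliomas and 599.5 to 2666 in normal brains. Against normal brain 1 of the 7 was higher and 1 lower in medulloblastoma (32.2% and 32% of all genes). Their part in these differences was not tested.

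The gliomas differed widely among themselves. B3 was the highest glioma for 16 of the 35 genes, among them Col9a1, Col9a2, Col9a3, Col11a1, Col11a2, Col16a1 and the collagen VI genes, and it was the lowest for Col2a1 and Col3a1. B2 was the highest for 12, among them Col1a1, Col1a2, Col3a1, Col5a2, Col12a1 and Col19a1, and it was the lowest for Col9a1, Col9a2, Col9a3, Col11a2 and Col27a1. A4, the p53-only glioma, was the highest for Col2a1, Col4a4, Col5a3 and Col18a1. Among medulloblastomas C6 was the lowest for 10 genes, including Col3a1, Col4a1, Col4a2 and the collagen VI genes, and C4 was the highest for 8.

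Pairs of chains of one collagen, or of fibrillar collagens found in the same fibrils or encoded side by side, were compared across arrays within a tissue, as 12 relations of 6 pairs, on the log2 scale. Col4a1 and Col4a2 followed each other closely in medulloblastoma, with Pearson's r = 0.975 and Spearman's rho = 0.976 (n = 10, permutation p = 1e-05, the smallest the resamples can give, and 3e-05; adjusted p = 0.00012 and 0.00036). Without A6 and C6, the arrays farthest from the median, r was 0.925, and after removal of the prefix means it was 0.977. In normal brain the pair had r = 0.891 and rho = 0.904 (n = 12, permutation p = 8e-05 and 0.00013; adjusted p = 0.00032 and 0.00052), r = 0.932 without B2 and C2 and 0.907 within prefixes. Arrays share their scaling, and no causal reading follows.

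Col1a2 and Col3a1, of connective tissue fibrils, had r = 0.835 and rho = 0.806 in medulloblastoma (permutation p = 0.00355 and 0.00671; adjusted p = 0.00852 and 0.0145), with r = 0.826 without C1 and C6 and 0.84 within prefixes. In normal brain they had r = 0.853 and rho = 0.916 (permutation p = 0.00038 and 7e-05; adjusted p = 0.00114 and 0.00042), with r = 0.795 without B1 and C1 and 0.854 within prefixes. Col3a1 and its genomic neighbour Col5a2 had r = 0.919 and rho = 0.874 in normal brain (permutation p = 2e-05 and 0.00043; adjusted p = 0.00012 and 0.00129), with r = 0.849 without B2 and B6 and 0.932 within prefixes. In medulloblastoma r was 0.692 and rho 0.455 (permutation p = 0.0347 and 0.191; adjusted p = 0.0463 and 0.229), and it fell to 0.152 without C1 and C6, so it rested on those arrays.

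Col6a1 and Col6a2, chains of collagen VI, had r = 0.701 and rho = 0.758 in medulloblastoma (permutation p = 0.0226 and 0.0147; adjusted p = 0.0339 and 0.022), and r = 0.695 and rho = 0.741 in normal brain (permutation p = 0.00486 and 0.00727; adjusted p = 0.00972 and 0.0145). Without the 2 farthest arrays r was 0.654 in medulloblastoma and 0.637 in normal brain, and within prefixes 0.815 and 0.692. Col1a1 and Col1a2 had r = 0.778 and rho = 0.77 in medulloblastoma (permutation p = 0.00779 and 0.0128; adjusted p = 0.0134 and 0.022), with r = 0.662 without C1 and C4 and 0.826 within prefixes. In normal brain, where Col1a1 was dim, they had r = 0.216 and rho = 0.203 (permutation p = 0.501 and 0.529). Col9a1 and Col9a3 had r = 0.267 and rho = 0.261 in medulloblastoma (permutation p = 0.457 and 0.471; adjusted p = 0.498 and 0.514). There r was 0.638 without A5 and C6 and 0.841 within prefixes. In normal brain r was 0.554 and rho 0.664 (permutation p = 0.061 and 0.0223; adjusted p = 0.0732 and 0.0297), with r = 0.672 without B1 and B7.

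**Figure D3:**
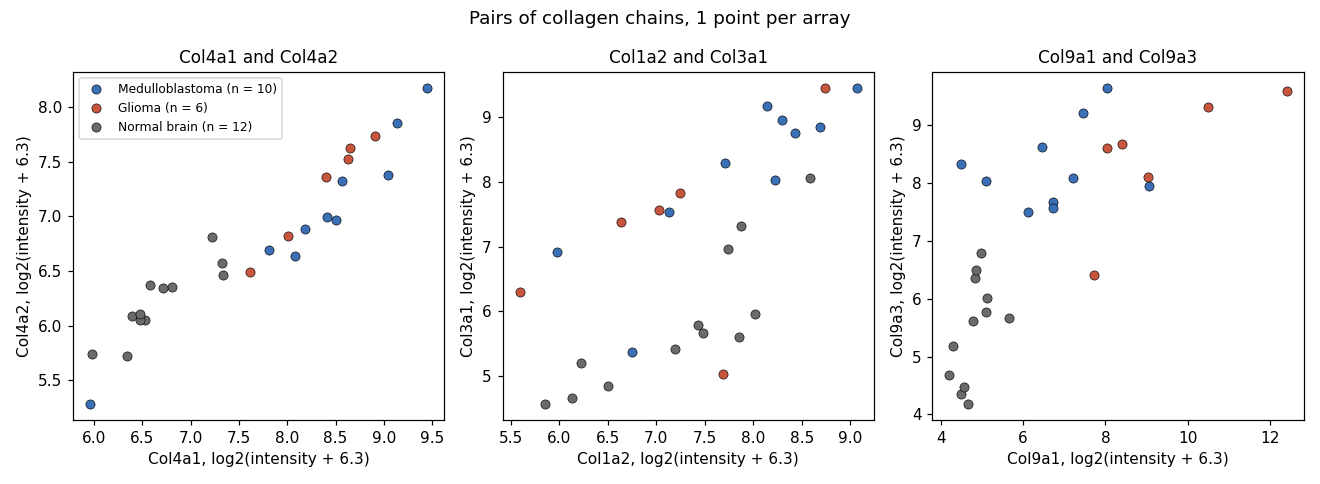
Pairs of collagen chains, each axis as log2(intensity + 6.3), with 1 point per array of medulloblastoma (blue, n = 10), glioma (red, n = 6) and normal brain (grey, n = 12). Col4a1 and Col4a2 lie close to a line in medulloblastoma (r = 0.975) and in normal brain (r = 0.891). Col9a1 and Col9a3 scatter in medulloblastoma (r = 0.267), and no correlation was computed for gliomas.

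The Rictor genotypes were compared within tissues, and 0 of the 35 genes were called by limma in any of the 5 genotype comparisons. In medulloblastomas labelled Rictor-/- against p53-only ones, 3 had an unadjusted p under 0.05 (4.34% of all genes did), and limma called 1 of all 13927 genes (0.00718%). Col9a1 was at 100.3, 169.7, 258.8, 81.4 and 530.1 in the Rictor-/- medulloblastomas and at 142.5, 16.1 and 28.1 in the p53-only ones. The groups overlapped through A3 (142.5). The difference was 1.95 ± 0.67 (limma, adjusted p = 0.981). Col25a1 was at 188.6, 131.5, 10.6, 291.9 and 67.6 in Rictor-/- medulloblastomas and at 15.6, 26.7 and 15.9 in p53-only ones (1.99 ± 0.73, limma, adjusted p = 0.981), and C4 (10.6) was below each p53-only array. Col2a1 had a difference of -1.16 ± 0.52 (limma, adjusted p = 0.981), with 3.4 to 14.6 in Rictor-/- and 3, 35.6 and 54.1 in p53-only medulloblastomas.

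Between Rictor-/- and Rictor+/- medulloblastomas 3 genes had an unadjusted p under 0.05 (1.42% of all genes did), and limma called 0.00718% of all genes. Col9a2 was at 23.6, 21.2, 37.7, 23.2 and 13.1 in Rictor-/- and at 1.6 and 7.4 in Rictor+/- medulloblastomas. With an adjusted p of 1 the Col9a2 difference of 1.48 ± 0.38 (limma) did not pass. Col9a3 differed by 1.09 ± 0.46 and Col11a1 by -0.82 ± 0.36 (limma, adjusted p = 1 for both). Among normal brains 0 genes had an unadjusted p under 0.05 between Rictor-/- and Rictor+/- (3.15% of all genes did), and limma called 0% of all genes. The smallest p was that of Col9a2 (0.40 ± 0.21, limma, adjusted p = 1), followed by Col6a1 (0.55 ± 0.37) and Col1a1 (-0.33 ± 0.23).

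The 1 Rictor-/- glioma was set against the 4 Rictor+/- ones, with its own spread taken from the replicated groups. Here 5 genes had an unadjusted p under 0.05 (4.57% of all genes did), and limma called 0.0215% of all genes. Col12a1 was at 6.9 in the Rictor-/- glioma and at 39.1, 22.5, 321.8 and 58.8 in the Rictor+/- gliomas (-2.46 ± 0.85, limma, adjusted p = 0.756). Col11a2 (40.3 in the Rictor-/- glioma) and Col4a5 (11.2) had differences of -1.95 ± 0.83 and -1.65 ± 0.74 (limma, adjusted p = 1 for both). The test of whether the Rictor-/- minus Rictor+/- difference itself differed between medulloblastoma and normal brain called 0 genes by limma, with 0 at an unadjusted p under 0.05 (1.9% of all genes). The smallest p were those of Col22a1 (0.74 ± 0.44), Col9a2 (1.09 ± 0.78) and Col27a1 (-0.88 ± 0.66), each with an adjusted p of 1 (limma).

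**Figure D4:**
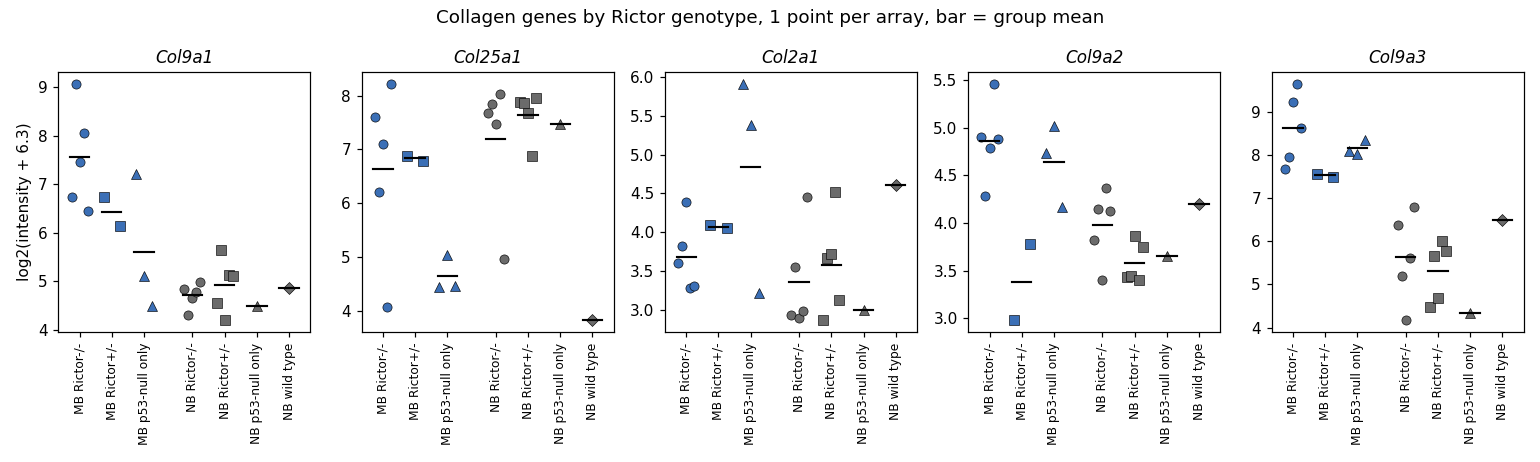
Col9a1, Col25a1, Col2a1, Col9a2 and Col9a3, which are among those with the smallest p in the medulloblastoma genotype comparisons, as log2(intensity + 6.3) on the y axis, by tissue and Rictor genotype, with 1 point per array and the group mean as a bar. The groups overlap for most genes, and none of these differences passed (adjusted p of 0.981 or 1).

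Enzymes that modify and cross-link collagen chains were examined as a list. Of 25 tested, 13 were higher and 5 lower in medulloblastoma than in normal brain (median log2 difference 0.51), and 17 were higher and 3 lower in glioma (median 1.05). Over all genes 32.2% were higher and 32% lower in medulloblastoma (median 0.01), and 28.4% were higher and 25.5% lower in glioma (median 0.05). Between the tumours 1 enzyme was higher and 16 were lower in medulloblastoma (median -0.65), where 13.6% of all genes were higher and 14.8% lower (median 0.01). Plod2, a lysyl hydroxylase that sets the cross-links of collagen, had 88.5, 138 and 214.1 in medulloblastomas, 90.4, 146 and 224.6 in gliomas, and 10, 24.6 and 47 in normal brains. Every tumour array was above every normal brain. Plod2 rose by 2.23 ± 0.23 in medulloblastoma (adjusted p = 4.22e-09) and by 2.33 ± 0.26 in glioma (adjusted p = 5.1e-08).

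Loxl1, a lysyl oxidase that cross-links elastin and collagen, had 7.7, 363 and 625.2 in medulloblastomas, 10.6, 22.4 and 103.7 in gliomas, and 5.6, 24 and 102.3 in normal brains. It was higher in medulloblastoma than in normal brain (2.76 ± 0.55, adjusted p = 9.87e-05) and than in glioma (3.01 ± 0.67, adjusted p = 0.00123). Colgalt2, which adds galactose to hydroxylysine, rose by 1.90 ± 0.25 in glioma (adjusted p = 7.76e-07) and fell by 0.76 ± 0.22 in medulloblastoma (adjusted p = 0.00411). Between the tumours it was lower in medulloblastoma (-2.66 ± 0.27, adjusted p = 3.36e-08), with 2.2 to 21 in medulloblastomas and 80.3 to 185.2 in gliomas. Adamts3, which cleaves procollagen ends, fell by 2.71 ± 0.25 in medulloblastoma (adjusted p = 6.91e-10) and by 1.20 ± 0.28 in glioma (adjusted p = 0.000783). Loxl3, another lysyl oxidase, rose by 1.57 ± 0.24 in glioma (adjusted p = 4.07e-06) and by 0.52 ± 0.21 in medulloblastoma (adjusted p = 0.0313).

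Among collagen receptors 9 were tested, of which 5 were higher and 0 lower in medulloblastoma (median 0.58, against 32.2% higher, 32% lower and a median of 0.01 over all genes) and 6 higher and 0 lower in glioma (median 0.80, against 28.4%, 25.5% and 0.05). Ddr2, a receptor kinase for fibrillar collagen, had 119.5, 252 and 403.8 in medulloblastomas, 57.6, 275.5 and 377.2 in gliomas, and 17.7, 39.1 and 83.9 in normal brains. It rose by 2.31 ± 0.28 in medulloblastoma (adjusted p = 7.17e-08) and by 2.30 ± 0.32 in glioma (adjusted p = 1.4e-06). Ddr1, its relative, rose by 1.14 ± 0.15 in medulloblastoma (adjusted p = 2.35e-07) and by 1.26 ± 0.17 in glioma (adjusted p = 8.99e-07). Itgb1, the beta chain of the collagen-binding integrins, rose by 0.90 ± 0.14 in medulloblastoma (adjusted p = 5.11e-06) and by 1.67 ± 0.16 in glioma (adjusted p = 9.02e-09), and it was lower in medulloblastoma than in glioma (-0.77 ± 0.17, adjusted p = 0.0015).

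Of 12 collagen-degrading enzymes and inhibitors tested, 3 were higher and 4 lower in medulloblastoma (median 0.05, against 32.2% higher, 32% lower and a median of 0.01 over all genes), and 3 were higher and 0 lower in glioma (median 0.62, against 28.4%, 25.5% and 0.05). Mmp14, a membrane-bound collagenase, rose by 1.59 ± 0.27 in medulloblastoma (adjusted p = 9.96e-06) and by 1.25 ± 0.30 in glioma (adjusted p = 0.00118). Mmp2, a gelatinase that Mmp14 activates, rose by 1.24 ± 0.33 in medulloblastoma (adjusted p = 0.00188), and its glioma difference was 0.80 ± 0.38 (adjusted p = 0.0765). Timp2, an inhibitor of these enzymes, fell by 2.24 ± 0.30 in medulloblastoma (adjusted p = 2.98e-07), to a median of 208 in medulloblastomas, against 733 in gliomas and 1137 in normal brains. Timp4, another inhibitor, rose by 1.64 ± 0.39 in glioma (adjusted p = 0.000804) and fell by 0.98 ± 0.34 in medulloblastoma (adjusted p = 0.0134). Mmp16, a further membrane-bound enzyme, rose by 1.46 ± 0.34 in glioma (adjusted p = 0.000742), where B7 reached 1105.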

How the data were processed

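Expression was analysed on 28 arrays (10 medulloblastomas, 6 gliomas, 12 normal brains), of 22, 6 and 24 in the design text. The values the authors deposited are linear intensity for each probe set on each array, made with MAS5 and GCOS per the submitters' processing notes, with versions not given in the sources used here. Per the labels' protocols, tumours were snap frozen, and total RNA was used. No detection calls were used, and precision depends on how many arrays a group has.

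Of 45101 probe sets, 64 were controls, 34945 had 1 gene symbol in the platform annotation, 932 several, and 9224 none or were controls; 0 collagen symbols needed an update. A gene's brightest probe set on average stood for it, and the 13927 genes with a mean above the 30th percentile were tested on log2(intensity + 6.3), the 25th percentile of the table. Tissue comparisons came from one limma fit (lmFit, eBayes with trend) with additive tissue and genotype effects, in which Z2 has a term to itself and so does not inform them. Genotypes were compared in fits of the 10 medulloblastomas, the 12 normal brains or 10 group means over all arrays. Correlations used 100000 permutations, two-sided. The promoter sequences are from RefSeq, GRCm38.p6. Alternatives were other pseudocounts, quantile normalization, filters, the mean of all probe sets, the title prefix, the title code (alone or with the prefix) as a block, group means, and leaving out arrays. Software was limma 3.58.1 in R 4.3.3, with pandas 2.3.3, scipy 1.17.1, matplotlib 3.10.9 and numpy 2.4.6 in Python 3.11.15, and the fits were tested on simulated data.

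The members, lists and tests were chosen with earlier results of these data known. Full statistics were given for the 6 called collagen genes with the largest rise and the 6 with the largest fall in each tissue comparison, and for the 3 smallest p where a genotype comparison called fewer. Against normal brain they were also given for Col1a1, Col1a2, Col3a1, Col4a1, Col4a2, Col9a1 and Col9a3. The same holds for up to 3 called genes of the lists of collagen enzymes, receptors, other basement membrane genes, and degrading enzymes and inhibitors. Of the cell type marker lists only counts, sums and single genes were given, so a marker not named may have been called. Other collagen genes are given as members. Arrays, and the marker genes named outside this rule (Gabra6, Atoh1, Pdgfrb, Anpep, Myh11, Igf2, Ogn, Slc6a13, Lum), were chosen after their values were seen.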

Additional observations from a re-analysis of the deposited data

Results flagged for a closer look

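Values far from the rest of their group were sought for 22 collagen genes in the 4 groups of 4 or 5 arrays, 88 sets in all, and 5 stood out; chance alone flags about 1 in 20 such sets. Col19a1 was at 289.2 in glioma B2, against 30.8 to 32 in the other Rictor+/- gliomas. Col5a2 was at 206.2 in the same glioma, against 51.3 to 53.4. Col8a2 was at 187.8 in medulloblastoma C4, against 4.9 to 11.7 in the other Rictor-/- medulloblastomas. Col25a1 was low in normal brain B2, at 111.8 against 198.2 to 240.4 in the other Rictor+/- normal brains, and in normal brain C5, at 25.2 against 171.6 to 256.3 in the other Rictor-/- normal brains. Gabra6 was at 1740 in normal brain B2 and 4153 in C5, and at 116.3 or less in the other Rictor+/- and Rictor-/- normal brains.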

How the results depend on the processing

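Of the 1673 alternative values for 40 gene results, 1575 kept their direction and side of the threshold, 56 were no longer called, 16 became called and 26 changed sign, all but 1 of them (Col25a1 in medulloblastoma) in differences that were not called in the report. The counts of called collagen genes stayed within 1.5 times of 18, 19 and 9 except for medulloblastoma against normal brain within prefix YZ (8), glioma against normal brain within YZ2 (11), and medulloblastoma against glioma within YZ2 (5), with the title code as a block (5) and with prefix and code as a block (2). The cause was not tested, each within-prefix fit holds 14 arrays, and the share of all genes called was not computed for these alternatives. Leaving out 1 array at a time gave 15 (without medulloblastoma C4) to 20 (without medulloblastoma C1) calls in medulloblastoma against normal brain, 18 to 22 (without normal brain B2) in glioma against normal brain, 8 (without glioma A4) to 11 (without glioma B2) between the tumours, and 0 in each genotype comparison. Title codes are shared between tissues, and whether a shared code marks one mouse is not stated. Over 11 same-code pairs the correlation of deviations ran from -0.12 to 0.25, and 5 exceeded 0.1 (4 of the 8 that also share the prefix). Pairs with different codes were not examined, so these values cannot show whether a shared code marks one mouse. In the main fits the arrays were not treated as paired. The replicate block by code gave 17, 19 and 5 calls, and the replicate block by prefix and code, added after the data were seen, 12, 20 and 2. With either block, Col9a1, Col20a1 and Col2a1 between the tumours, and Col25a1 in medulloblastoma and Col19a1 in glioma against normal brain, did not pass, and Col3a1 in glioma was called (2.40, adjusted p = 0.00212 by code and 0.0042 by both). With prefix and code, Col19a1 and Col4a2 in medulloblastoma and Col25a1, Col11a2 and Col11a1 between the tumours did not pass either, and Col25a1 in medulloblastoma was 0.21 (adjusted p = 0.817).

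The differences that changed sign were these. In glioma against normal brain, Col1a2 was 0.21 with the mean of all probe sets, 0.13 within YZ2, 0.62 with either block, 0.066 without normal brains B2, C5 and Z2, and -0.45 to 0.17 with 1 array left out, and Col1a1 was -0.040 with group means. Between the tumours, Col4a1 was 0.013 with the prefix as a term, 0.19 within YZ, 0.14 within YZ2, 0.16 without the 8 arrays and -0.21 to 0.12 with 1 array left out. Col9a3 was 0.089 within YZ and 0.32 with the block by code (0.027 by both). Col1a1 was -0.085 within YZ2, -0.038 with the block by code (-0.075 by both) and -0.018 to 0.49 with 1 array left out. With the block by code Col1a2 was -0.36 and Col3a1 -0.26 (-0.47 and -0.83 by both). Rictor-/- against Rictor+/- within YZ in medulloblastoma and within YZ2 in glioma, and the test of the difference between tissues within YZ, could not be fitted. Dim probe sets, such as Col1a1, lie near the pseudocount and limit what can be shown.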
